A study of Mus musculus with 9 samples.

Results

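Natural killer (NK) cells and cytotoxic T cells kill target cells by releasing granules that hold perforin and granzymes. In mice, NK cells sense their targets through lectin-like receptors of the Klr families, encoded close together in the NK gene complex, and through Ncr1. Activating and inhibitory receptors of these families are carried in varying mixtures by single cells. The 10 genes described here are the granule effectors Gzma, Gzmb, Prf1 and Nkg7, the chemokine Ccl5, the lectin-like receptors Klrd1, Klrk1, Klra4 and Klre1, and the NK receptor Ncr1. They were chosen by name out of the 23499 genes of the blood table, and all 10 were found in it. Their levels were followed by cell class, by mouse and by single barcode column, and then by class in the joint table.

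Blood came from 9 female 129SvE mice, 5 arthritic (mice 1, 3, 4, 5 and 6) and 4 healthy (mice 1 to 4). The labels call the arthritic mice sick with rheumatoid arthritis, at disease stages between 1.5 and 2.5, and put the healthy mice at stage 0. They name the tissue both as blood and as mononuclear cells, and the way arthritis was induced is not given in the sources used here. Libraries were made by Seq-Well, which reads single cells with barcoded beads in small wells. A level is given in SPM, the gene's signal per 1000000 signal in the columns named.

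Each of the 4310 columns of the blood table carries a mouse and the name of a cell class. Many columns are not separate measurements. In blood 1313 columns were identical to another in every gene, 734 of them to a column of another mouse, and 719 (16.7%) to a column of the joint table. Mice therefore share part of their values, p-values take the mice as independent, and results are also given without the shared columns. Only 1 barcode occurred in more than 1 mouse and 1 in both tables, so barcodes do not show which columns are shared. Total signal lay between 8350920 and 13557201 in arthritic mice, against 330950 to 2053973 in healthy mice. Hemoglobin genes took 0.63% to 50% of it in arthritic mice and 1.68% to 55% in healthy mice.

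The 4 members on chromosome 6 (GRCm38) lie within 489 kb of each other in the NK gene complex. Klre1 starts at 129577905, Klrd1 at 129591782, Klrk1 at 129610323 and Klra4 at 130043731. Gzma lies on chromosome 13, Gzmb on 14, Prf1 on 10, Ccl5 on 11, and Nkg7 and Ncr1 on 7. RefSeq promoter sequences (GRCm38.p6) were matched for 8 members, not including Ccl5 and Klrd1. Shown are 250 bases ahead of the RefSeq gene start for a granule effector and a receptor that were found in the same columns, for a member highest in another class (Gzmb), and for the Klra member. Capitals mark AGGTGT (a T-box core) and TGTGGT (a Runx core) or their reverse complements.
Gzma, chr13:113100982-113101231, minus strand: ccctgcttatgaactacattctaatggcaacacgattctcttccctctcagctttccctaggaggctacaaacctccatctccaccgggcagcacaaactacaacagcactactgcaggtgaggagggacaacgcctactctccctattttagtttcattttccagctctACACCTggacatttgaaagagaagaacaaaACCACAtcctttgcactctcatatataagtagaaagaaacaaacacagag
Ncr1, chr7:4337465-4337714, plus strand: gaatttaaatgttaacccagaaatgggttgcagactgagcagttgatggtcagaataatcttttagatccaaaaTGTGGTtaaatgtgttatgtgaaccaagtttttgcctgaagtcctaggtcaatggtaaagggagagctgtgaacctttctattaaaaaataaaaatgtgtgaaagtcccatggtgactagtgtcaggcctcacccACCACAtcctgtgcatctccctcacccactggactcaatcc
Gzmb, chr14:56262335-56262584, minus strand: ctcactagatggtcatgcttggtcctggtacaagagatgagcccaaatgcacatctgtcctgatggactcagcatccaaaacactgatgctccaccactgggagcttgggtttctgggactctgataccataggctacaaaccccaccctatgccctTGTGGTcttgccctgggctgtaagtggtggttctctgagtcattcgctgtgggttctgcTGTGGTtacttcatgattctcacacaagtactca
Klra4, chr6:130067272-130067521, minus strand: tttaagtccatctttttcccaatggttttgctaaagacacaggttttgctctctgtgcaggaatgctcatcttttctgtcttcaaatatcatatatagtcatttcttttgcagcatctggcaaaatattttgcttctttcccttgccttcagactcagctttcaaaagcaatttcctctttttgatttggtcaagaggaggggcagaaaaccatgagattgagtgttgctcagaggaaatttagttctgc

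TGTGGT, on either strand, stood in 7 of the 8 members' windows, all but that of Klra4, and in 14.2% of the 27025 promoters of this length. AGGTGT stood in 3 of the 8 (Gzma, Prf1 and Nkg7), against 12% of all promoters, and CAGGAAG (an Ets core) in 2 of the 8 (Prf1 and Nkg7), against 10.5%. None of these motifs overlaps another in the sequences shown. The windows of Nkg7 and Prf1, which are not shown, reach past the gene starts that GENCODE gives. That of Klre1, also not shown, lies wholly inside the gene by GENCODE and is counted among the 7 with TGTGGT. These matches describe letters in the windows and not sites of binding. Read 2 covers 50 bases next to the polyA tail, so it matters how unique the transcript ends are. Of the 451 windows of 50 bases in the last 500 bases of the GENCODE transcript, Klra4 shared 21 (4.66%) with Klra1, and no window of the other 9 members occurred in another gene. The Klra genes differ between mouse strains in number and sequence, and these 129SvE reads were placed on GRCm38, so the Klra4 level may include reads of relatives.

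Across the 6 classes with over 100 columns, 7 of the 10 members had their highest level in the class labelled T-cells-foxP3- (here the foxP3 T class). These were Gzma, Ccl5, Klrd1, Klrk1, Klra4, Klre1 and Ncr1. Of the genes with at least 10 SPM in some class, 1.92% had their highest level there, and of all genes with signal 5.83%. The class label itself is not borne out by its gene: Foxp3 stood at 2.21 SPM in the foxP3 T class and at 15.0 SPM in the CD4 T class. None of 21 T cell markers was highest in the foxP3 T class. Hemoglobin genes took 37.6% of its signal, against 0.587% in the CD4 T class, and 7 of 14 erythroid markers were highest there. In bulk sums such as these, fewer cells of a type and less RNA per cell cannot be told apart.

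Gzma, a granzyme of NK and memory T cells, reached 150 SPM in the foxP3 T class. The myeloid dendritic class came second with 52.2 SPM, and the progenitor class was lowest with 2.90 SPM. Each mouse weighted equally, Gzma averaged 169 ± 96.4 SPM in the foxP3 T class (SD, n = 8 mice with at least 3 columns). Within single mice it was higher in the foxP3 T class than in the CD4 T class in 6 of 6 mice and than in the B class in 7 of 7. Against the granulocyte class it was higher in 6 of 8 mice, all 5 arthritic mice and 1 of 3 healthy mice. Ccl5, a chemokine of activated T and NK cells, stood at 200 SPM in the foxP3 T class and 89.2 SPM in the dendritic class. It exceeded the granulocyte class in 8 of 8 mice and the CD4 T class in 4 of 6.

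Among the receptors, Klra4 stood furthest apart. This activating Ly49 receptor stood at 50.2 SPM in the foxP3 T class and at 11.1 SPM in the CD4 T class, the next highest. Klrd1 (CD94, partner of the NKG2 receptors) stood at 44.7 and 35.6 SPM in the same classes, and its mouse average of 44.8 ± 24.1 SPM (SD, n = 8) overlaps the 37.4 ± 9.56 SPM of the CD4 T class (n = 6). Klrk1 (NKG2D), which binds stress-induced ligands, had 28.1 SPM in the foxP3 T class and 20.2 SPM in the dendritic class. Klre1, a partner chain of the Klri receptors, had 24.0 SPM in the foxP3 T class and 19.1 SPM in the CD4 T class. Ncr1 (NKp46), the receptor most restricted to NK cells among the 10, had 14.3 SPM in the foxP3 T class and 10.9 SPM in the dendritic class. For Ccl5, Klra4, Klrd1, Klrk1, Klre1 and Ncr1 the first and second classes lie closer together than the SD between mice. In the foxP3 T class this SD was 132 SPM for Ccl5 and 54.3 SPM for Klra4.

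The other 3 members peaked elsewhere. Gzmb, a granzyme of armed killer cells that basophils and mast cells of the mouse also make, was highest in the dendritic class at 32.8 SPM, against 12.1 SPM in the foxP3 T class. Its mouse average in the dendritic class was 48.8 ± 70.3 SPM (SD, n = 6), with 0 in arthritic mice 1, 3 and 5. Of its 39 signal there, 25 came from arthritic mouse 4. Prf1, which forms the pore, reached 17.4 SPM in the CD4 T class and 12.1 SPM in the foxP3 T class. Nkg7, a granule membrane protein, reached 128 SPM in the progenitor class, 109 SPM in the CD4 T class and 73.9 SPM in the foxP3 T class. This order holds for pooled columns. Each mouse weighted equally, Nkg7 was highest in the CD4 T class at 118 SPM, ahead of the foxP3 T class at 104 SPM and progenitors at 88.7 SPM, and without arthritic mice 1 and 3 the CD4 T class was again highest at 107 SPM.

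**Figure D1:**
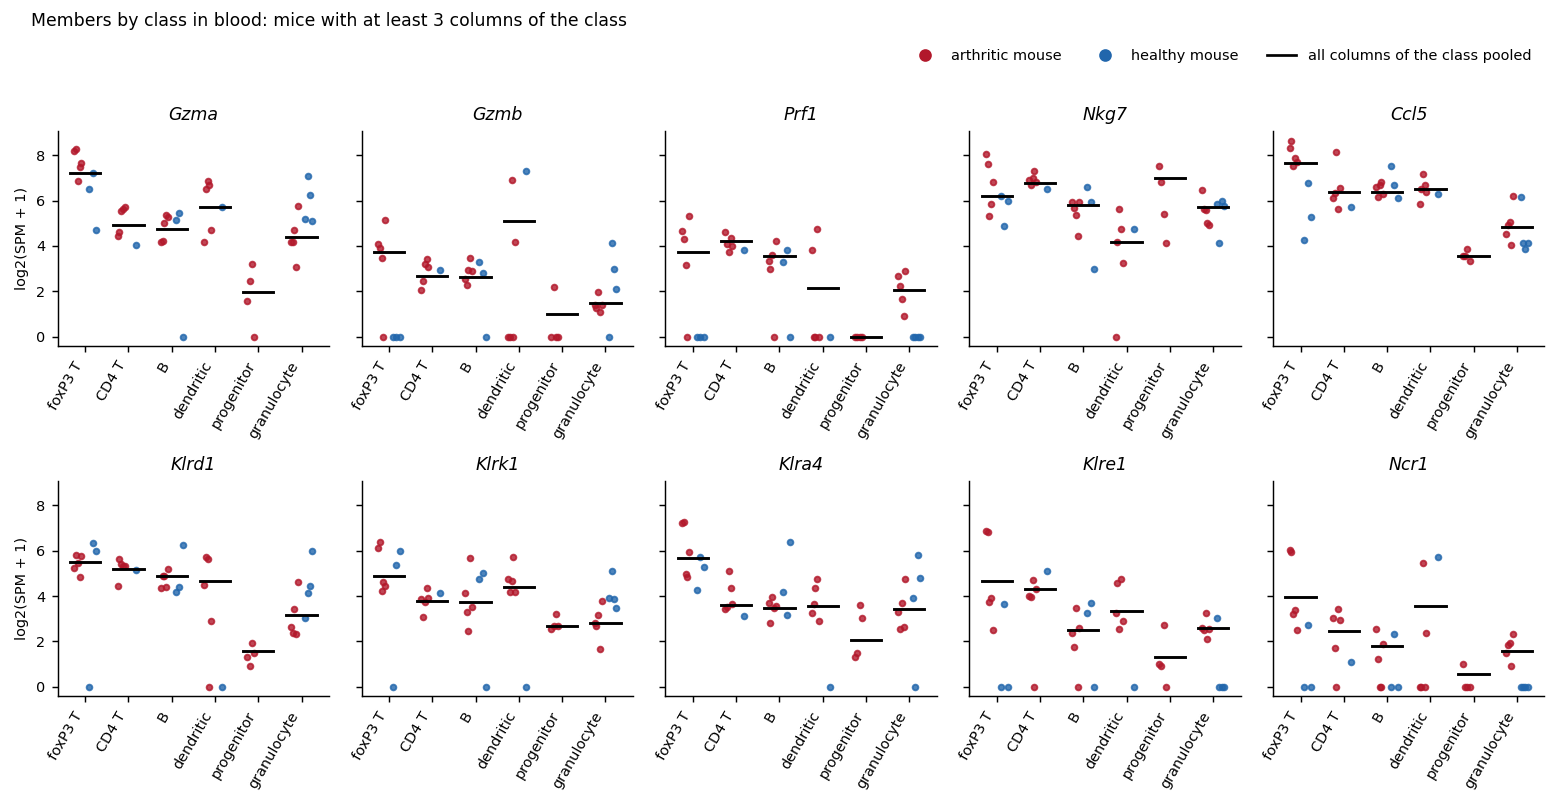
Level of each member in 6 blood classes, as log2(SPM + 1). Points are mice with at least 3 columns of the class, arthritic (red) left of healthy (blue). Black bars are all columns of the class pooled. The pooled bars of Gzma (150 SPM) and Klra4 (50.2 SPM) are highest in the foxP3 T class, and that of Nkg7 in progenitors.

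Which members led in the foxP3 T class depended on a few mice and columns. Arthritic mouse 4 gave 203 of its 331 columns, arthritic mice 1, 3, 5 and 6 gave 23, 16, 15 and 46, and healthy mice 1 to 4 gave 2, 4, 14 and 8. Without arthritic mouse 4, 9 members were highest there, all but Nkg7. Without the columns shared with another mouse or the joint there were 6, since Klre1 then stood at 15.8 SPM against 18.6 SPM in the CD4 T class. Without arthritic mice 1 and 3 there were 5, as Ncr1 (7.27 SPM against 16.6 SPM in the dendritic class) and Klre1 (10.8 SPM against 24.1 SPM in the CD4 T class) dropped out. With hemoglobin signal left out of the totals there were 8, with Prf1 at 19.5 SPM. Gzma, Ccl5, Klrd1, Klrk1 and Klra4 were highest in the foxP3 T class under each of these settings.

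The other lectin-like receptors were found in the same class. Of 19 further Klr and Clec2 genes in the table, 15 were highest in the foxP3 T class, against 5.83% of all genes with signal. Klra1 had 42.8 SPM in the foxP3 T class and 8.33 SPM in the CD4 T class, Klra7 37.2 and 12.04 SPM, and Klra5 14.9 and 3.33 SPM. All 3 are Ly49 receptors, and Klra7 shared 27.5% of its end windows with the pseudogene Klra13-ps. Klra3, Klra9, Klra10 and Klrc1 shared 42.4%, 44.8%, 40.6% and 56.3% of theirs with related genes, so the 15 are not separate findings. Some of the 15 rest on low levels, with Klri1 at 3.04 SPM, Klrc1 and Klrc2 at 3.31 SPM each and Klra10 at 4.41 SPM. Of 24 other NK receptors and adaptors 2 were highest in the foxP3 T class, beside 5.83% of all genes with signal. These were Il2rb (32 SPM) and Lag3 (3.86 SPM). Tyrobp (DAP12), the adaptor of activating Ly49 receptors, had 201 SPM there and 986 SPM in the dendritic class, and Fcer1g had 142 and 830 SPM. Both are also used by myeloid cells. Hcst (DAP10), the adaptor of Klrk1, had 129 SPM there and 330 SPM in the CD4 T class. Of 21 other cytotoxic effectors and chemokines 6 were highest in the foxP3 T class. The 3 with the highest level there, Srgn (675 SPM), Lamp1 (103 SPM) and Ccl4 (82.8 SPM), were all higher in the dendritic class. Of 14 NK regulators 1 was highest there, Eomes, an NK and memory T cell factor, at 20.7 SPM against 15.6 SPM in the CD4 T class. Eomes, Il2rb, Lag3 and the receptors given for shared windows or low levels are named outside the rule for named genes. The regulators with the highest levels in the class, Ets1 (471 SPM), Id2 (110 SPM) and Irf8 (81.9 SPM), are shared by many lymphocytes or myeloid cells and were higher in other classes.

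Single columns of the foxP3 T class separated further. Of its 331 columns, 41 (12.4%, 29 of them distinct) held signal of at least 6 members, 76 held none, and no column held all 10. In the CD4 T class 2.89% of columns held at least 6 members, in the B class 0.999% and in granulocytes 1.05%. The 41 columns had a median of 3.97% hemoglobin signal, against 49.2% in the 76 columns with no member, at median total signals of 10176 and 10609. Arthritic mice 1 and 3 held 9 of 23 and 8 of 16 such columns, arthritic mice 4, 5 and 6 held 20 of 203, 1 of 15 and 2 of 46, and healthy mice 1 to 4 held 0 of 2, 0 of 4, 1 of 14 and 0 of 8. So the columns rich in members came mainly from arthritic mice 1, 3 and 4, while most columns of the class held few members. Of the 331 columns, 70 were identical to a column of another mouse, so these counts by mouse may rest on shared columns. Arthritic mice 1 and 3 both held columns with 9 members and 0.0216% hemoglobin. Arthritic mice 3, 4 and 5 all held one with 8 members and 6.03%. Healthy mouse 3 and arthritic mouse 4 both held columns with 7 members and 53.9%. The columns with at least 6 members also carried T cell markers, with 153 SPM of Cd3e and 486 SPM of Trac. Columns with no member had 82.9 and 121 SPM. Cd3e did not rise steadily with the number of members. It had 84.94 SPM in columns with 1 or 2 members and 59.98 SPM in those with 3 to 5. Trac had 239 and 225.2 SPM in the same columns. Hemoglobin is part of these totals, and its larger share in columns with no member lowers the other levels there. A column can hold more than 1 cell. Members and T cell markers in a column were therefore not tested as expression within a cell.

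**Figure D2:**
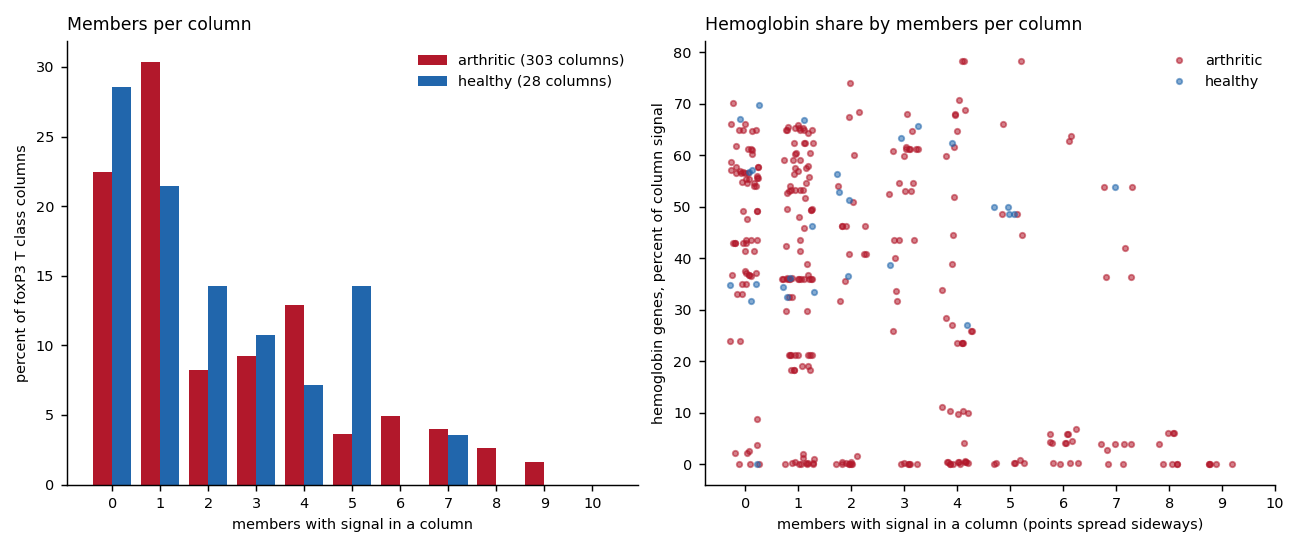
Left, percent of the foxP3 T class columns (303 arthritic, 28 healthy) by the number of members with signal. Right, hemoglobin share of each column in percent against that number, arthritic in red and healthy in blue; columns with at least 6 members had a median of 3.97% hemoglobin and those with none 49.2%.

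Columns of the foxP3 T class with Ncr1 or Klre1 held many other members as well. All 31 columns with Ncr1 signal also held Gzma, 28 held Klrk1, 27 held Ccl5, 26 held Nkg7 and 24 each held Klra4 and Klre1. Over all columns of the class 32.9% held Gzma, 22.1% Klrk1, 47.7% Ccl5, 40.8% Nkg7, 27.5% Klra4 and 10.9% Klre1. Conversely, 31 of the 109 Gzma columns and 27 of the 158 Ccl5 columns held Ncr1. In the Ncr1 columns Klra1 stood at 169 SPM, Klra7 at 123 SPM and Eomes at 96.3 SPM, against 28.3, 27.4 and 12 SPM in the 300 columns without it. T cell markers were higher in the Ncr1 columns too, at 4686 against 2673 SPM in sum, with Cd3e at 161 and 78.1 SPM. Hemoglobin took 12.4% of the signal with Ncr1 and 40.5% without it, which lowers the other levels in columns without Ncr1. The 31 columns came from 6 mice, and 20 of them were distinct. Of the 36 Klre1 columns 32 held Gzma, 32 Ccl5, 31 Klra4 and 30 Klrk1.

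Gzmb overlapped with these columns in part. Of its 24 columns in the foxP3 T class (12 distinct, from 4 arthritic mice), 15 held Nkg7, 13 Klra4, 12 Gzma, 6 Ncr1, 7 Ccl5 and 4 Klrk1. Over all columns of the class 40.8% held Nkg7, 27.5% Klra4, 32.9% Gzma, 9.37% Ncr1, 47.7% Ccl5 and 22.1% Klrk1. Summed basophil markers stood at 1080 SPM in the columns with Gzmb, against 92.9 SPM in the 307 without Gzmb. T cell markers summed to 5191 SPM in columns with Gzmb and 2722 SPM in those without, and hemoglobin took 7.33% and 39.7%. Bst2 had 129 and 50.1 SPM and Ccr9 56 and 5.6 SPM in the same columns. Siglech, looked at together with them, had 51.7 and 39.8 SPM. Hemoglobin is part of these totals, and its larger share in columns without Gzmb lowers the other levels there. Several kinds of marker thus differed between columns with and without Gzmb, and their part was not tested. Il4 had 495 SPM in columns with Gzmb and 20.3 SPM in those without, and the basophil protease Mcpt8 had 392 and 31.8 SPM. All 11 markers of that list had signal in the class, at 156 SPM in sum. In the mast cell class, with 5 columns of which 2 were distinct, Gzmb stood at 292 SPM and Nkg7 at 274 SPM, and the other 8 members were at 0. T cell markers were at 0 there, 21 of 21, and basophil markers summed to 108700 SPM, with none of 11 at 0.

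**Figure D3:**
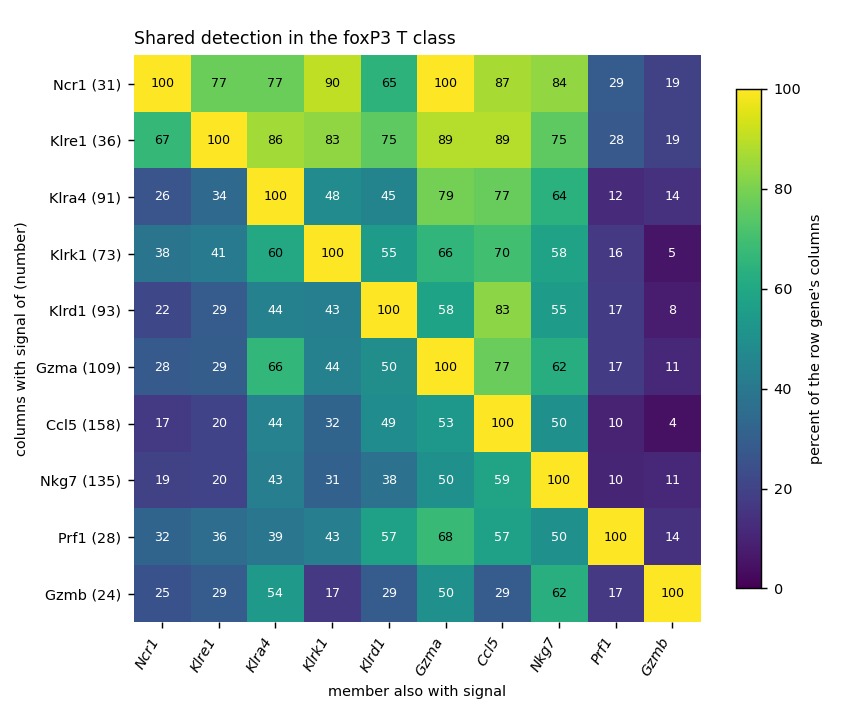
Percent of the foxP3 T class columns with signal of the row gene (number of columns in brackets) that also held the column gene, for the 10 members. The row of Ncr1 shows Gzma in all 31 columns and Gzmb in 6.

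Nkg7 had a second place outside lymphocytes. In the progenitor class 15 of 193 columns carried 79.8% of its signal, up to 63 in a column. Columns with Nkg7 had 2441 SPM of Elane and 2171 SPM of Mpo, both primary granule genes of early neutrophils, against 90.7 and 106 SPM in columns without it. By mouse, Nkg7 had 185, 112, 41.3 and 16.3 SPM in the progenitor class of arthritic mice 1, 3, 4 and 5, and Elane had 1667, 873, 539 and 197 SPM in the same mice. This order was not particular to Elane, since Car1, looked at together with it, had 1707, 1670, 577.5 and 420.7 SPM. No other mouse had 3 progenitor columns. In granulocytes too, the 587 columns with Nkg7 had 933 SPM of Elane, against 91.1 SPM in the other 1318. The joint progenitor columns were alike, with 3144 SPM of Elane in columns with Nkg7 and 109 SPM in columns without. These marker genes were chosen after the data were seen.

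Over units of 1 class in 1 mouse (38 units with at least 5 columns), Ccl5 and Gzma followed the mean of the other members most closely, with a Pearson r of 0.79 and 0.75. Nkg7 followed it least, with 0.34. The 10 other genes most like the members' mean, among those with at least 10 SPM in the foxP3 T class, were AW112010, Ms4a4b, Trbc2, Dapl1, Ltb, Klra13-ps, Trbc1, Sh2d1a, Ccr7 and Cd3e, with r between 0.87 and 0.77. Trbc1, Trbc2 and Cd3e belong to the T cell receptor complex, Ccr7 guides naive lymphocytes to lymph nodes, and Sh2d1a is a signalling adaptor of T and NK cells. Units share mice, columns and depth, so these values describe the table.

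The comparison between groups asked whether these transcripts differ in the blood of arthritic mice. Sums per mouse were scaled with TMM factors and tested on log2(SPM + 1) with limma over 8459 genes, of which 4 (0.0473%) passed an adjusted p under 0.05 and 1133 (13.4%) an unadjusted p under 0.05. No member passed, and Klrk1 alone had an unadjusted p under 0.05 and a lower level in arthritic mice, as 2.57% of all genes did. Gzmb, Prf1, Klre1 and Ncr1 fell under the filter of 10 SPM in at least 4 mice, so 6 members were tested. The median difference of all genes was 0.26 on the log2 scale.

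Klrk1 had 8.39, 6.49, 12.04, 6.77 and 9.27 SPM in arthritic mice 1, 3, 4, 5 and 6, against 16.4, 18.5, 37.9 and 17.9 SPM in healthy mice 1 to 4. Every arthritic mouse lay below every healthy mouse, as for 1.26% of all genes tested. The mean was 8.59 ± 2.25 SPM in arthritic and 22.7 ± 10.2 SPM in healthy mice (SD, n = 5 and 4). The log2 difference was -1.25 ± 0.36 (SE; limma, unadjusted p = 0.00482, adjusted p = 0.227), so Klrk1 did not pass over all genes, and 175 genes had a smaller p. A two-sided exact permutation test of Klrk1 alone gave 0.00794, the smallest p that 126 splits can give. The healthy values rest on 7, 48, 9 and 8 signal, and the arthritic values on 34 to 141. Without the columns identical to one of another mouse the difference was -0.73 (limma, adjusted p = 0.529), and without those of the joint as well -0.69 (limma, adjusted p = 0.538).

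Klrd1 had 8.27, 15.4, 24.0, 8.96 and 23.5 SPM in arthritic mice 1, 3, 4, 5 and 6, against 7.05, 20.4, 71.6 and 84.8 SPM in healthy mice 1 to 4. Klra4 had 8.93, 6.30, 19.9, 11.2 and 12.97 SPM in the arthritic mice, against 9.39, 6.16, 75.8 and 53.5 SPM in the healthy mice. For both genes healthy mice 3 and 4 lay above all arthritic mice. Healthy mouse 1 for Klrd1 and healthy mouse 2 for Klra4 lay below all arthritic mice, and the remaining healthy mouse lay within their range. Healthy mice 3 and 4 had 55% and 41.5% hemoglobin signal and gave 26 and 45 columns. The log2 differences were -1.04 ± 0.66 for Klrd1 (SE; limma, adjusted p = 0.453) and -0.97 ± 0.68 for Klra4 (adjusted p = 0.491). With the hemoglobin share as a covariate they were -0.81 and -0.54, and without the columns shared with another mouse or the joint the Klra4 difference was -0.04.

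Gzma had 16.2, 17.2, 56.0, 22.1 and 38.4 SPM in the arthritic mice, against 25.8, 26.9, 156 and 26.8 SPM in the healthy mice. Healthy mouse 3 alone stood high, and the other 3 healthy mice lay inside the arthritic range. The log2 difference was -0.62 ± 0.56 (SE; limma, adjusted p = 0.586). It was 0.01 without healthy mouse 3, and 0.08 without the columns identical to one of another mouse. Ccl5 averaged 55.9 ± 24.5 SPM in arthritic and 66.7 ± 21.8 SPM in healthy mice, and Nkg7 57.1 ± 15.8 and 54.1 ± 4.57 SPM (SD, n = 5 and 4), with overlapping groups.

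The 4 members under the filter reached 10 SPM in at most 2 mice each, with highest values of 16.4 SPM for Gzmb in healthy mouse 1, 16.5 SPM for Klre1 in healthy mouse 2, 10.2 SPM for Prf1 in arthritic mouse 6 and 5.20 SPM for Ncr1 in arthritic mouse 4. Gzmb averaged 4.52 ± 3.54 SPM in arthritic and 6.97 ± 6.42 SPM in healthy mice, Klre1 6.69 ± 2.61 and 7.97 ± 6.25 SPM, and Ncr1 3.07 ± 1.301 and 2.71 ± 2.17 SPM (SD, n = 5 and 4). Prf1 averaged 5.70 ± 3.00 SPM in arthritic and 3.58 ± 4.60 SPM in healthy mice and was listed at 0 in healthy mice 3 and 4. Exact permutation tests of single members gave two-sided p of 0.540 for Gzmb, 0.246 for Prf1, 0.992 for Klre1 and 0.627 for Ncr1. A difference was not detectable at these levels.

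**Figure D4:**
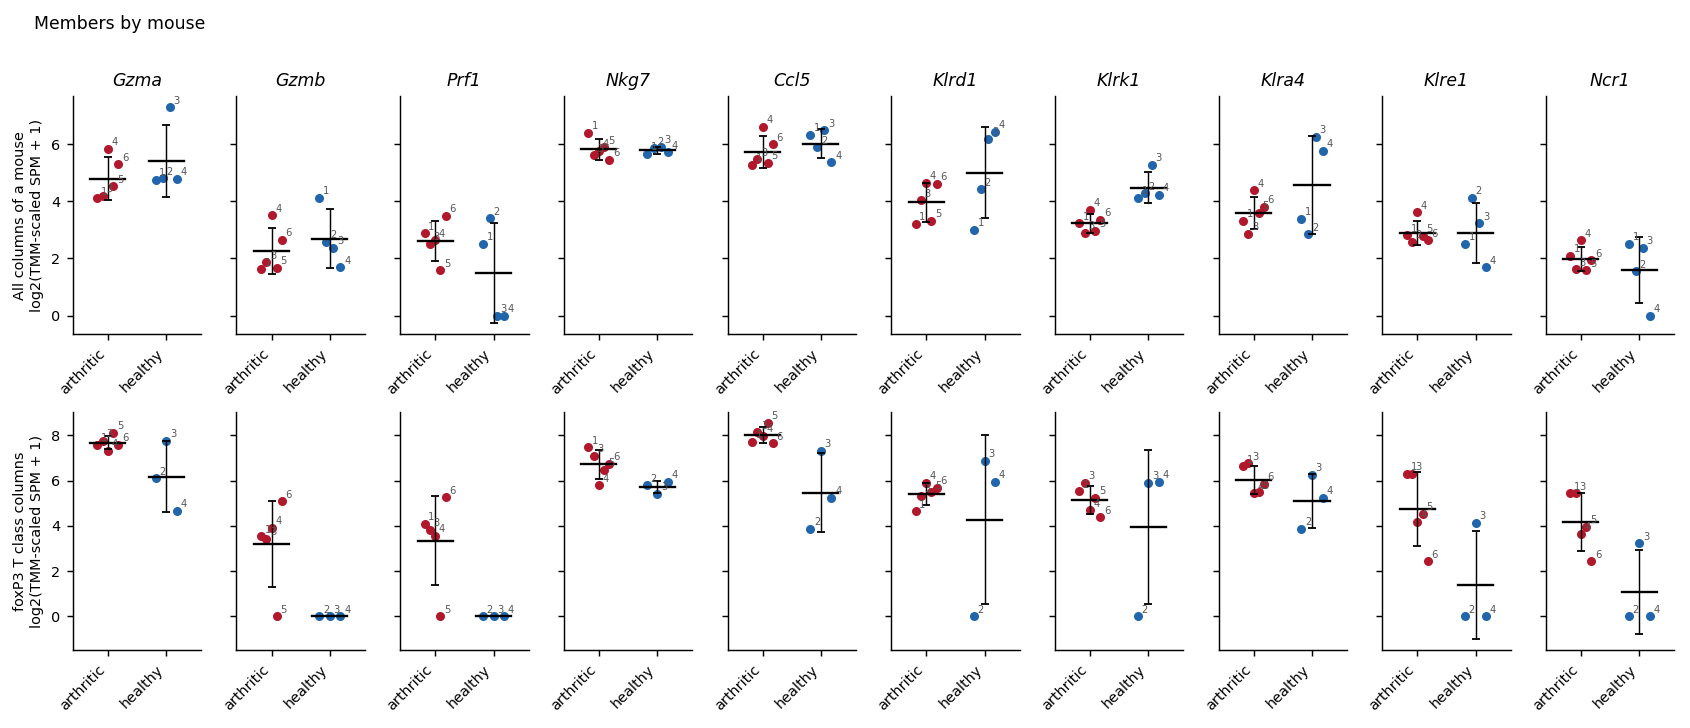
Each member by mouse as log2(TMM-scaled SPM + 1), arthritic left of healthy, over all columns (upper row) and over the foxP3 T class columns (lower row, mice with at least 3 columns). Small numbers name the mouse, and bars give mean and SD; Klrk1 over all columns and Ccl5 in the foxP3 T class are the members whose groups do not overlap.

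Outside the foxP3 T class 3 of 8498 genes (0.0353%) passed limma's adjusted p under 0.05, and 12.8% an unadjusted p under 0.05. None of the 5 members tested passed either. Klra4 differed by -1.25 ± 0.73 on the log2 scale (SE; limma, adjusted p = 0.418), and Gzma and Klrd1 by -0.85 each (adjusted p = 0.408 and 0.478). Klrk1 fell under the filter there, with 7.59 ± 1.77 SPM in arthritic and 13.9 ± 4.62 SPM in healthy mice (SD, n = 5 and 4). A two-sided exact permutation test gave p = 0.0317 for this gene alone. Its groups overlapped outside the class.

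Inside the foxP3 T class all 10 members passed the filter in the 5 arthritic mice and 3 healthy mice (2, 3 and 4) with at least 3 columns. Of the 9109 genes tested there limma called 0 at an adjusted p under 0.05 (0%), and 1761 (19.3%) had an unadjusted p under 0.05. Of all genes 18.6% had an unadjusted p under 0.05 and were higher in arthritic mice. The median difference of all genes was 0.71 on the log2 scale, and the members' values are read against it. Unadjusted p was under 0.05 for 7 members, but Gzmb and Prf1 passed the filter through arthritic mice alone, and Klre1 and Ncr1 had signal in 1 healthy mouse, so this count is not support. The healthy values rest on 4, 14 and 8 columns.

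Ccl5 had 207, 280, 251, 373 and 201 SPM in the foxP3 T class of arthritic mice 1, 3, 4, 5 and 6, against 13.5, 158 and 36.4 SPM in healthy mice 2, 3 and 4. Every arthritic mouse lay above every healthy mouse, as for 9.73% of the genes tested. The log2 difference was 2.54 ± 0.60 (SE; limma, unadjusted p = 0.00102, adjusted p = 0.068), and the two-sided exact permutation p of 0.0179 is the smallest that 56 splits can give. Leaving out healthy mouse 3 gave 3.43 (limma, adjusted p = 0.0166), a setting with 2 healthy mice in which 175 of 10538 genes were called. Leaving out the columns identical to one of another mouse gave 2.10 (adjusted p = 0.151). T cell markers summed to between 1048 and 6130 SPM in the arthritic and between 1336 and 3824 SPM in the healthy mice of this comparison, and their part in the result was not tested.

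Gzma had 191, 215, 158, 278 and 190 SPM in the class in arthritic mice, against 67.7, 216 and 24.3 SPM in healthy mice 2, 3 and 4, so healthy mouse 3 reached the arthritic range. The log2 difference was 1.50 ± 0.54 (SE; limma, adjusted p = 0.171), 2.26 without healthy mouse 3 (limma, adjusted p = 0.0419, with 175 of 10538 genes called), and 0.70 without healthy mouse 4 (limma, adjusted p = 0.465). Klre1 had 77.1, 78.2, 17.1, 21.9 and 4.41 SPM in arthritic mice 1, 3, 4, 5 and 6, against 0, 16.6 and 0 SPM in healthy mice. Ncr1 had 42.5, 42.4, 11.4, 14.6 and 4.41 SPM in the same arthritic mice, against 0, 8.31 and 0 SPM. For both receptors arthritic mice 1 and 3 stood far above the other arthritic mice. Hemoglobin took 0.174% and 0.658% of the class signal in those 2 mice, against 18.5% to 61.9% in arthritic mice 4, 5 and 6. Both mice held columns with 9 members and 0.0216% hemoglobin, so they may not be separate findings. Pooled and unscaled, Klre1 stood at 24.0 SPM and Ncr1 at 14.3 SPM in the class. Without the columns shared with another mouse or the joint these levels were 15.8 and 8.27 SPM. Gzmb and Prf1 were listed at 0 in healthy mice 2, 3 and 4 and in arthritic mouse 5. Gzmb reached 33.1 SPM and Prf1 37.5 SPM in arthritic mouse 6. Leaving out arthritic mouse 5, the one arthritic mouse at 0, puts both past the threshold along with 345 of 8946 genes, and nothing is read from that. Nkg7 and Klra4 differed by 1.00 ± 0.42 and 0.93 ± 0.57 (SE; limma, adjusted p = 0.216 and 0.379). Klrd1 and Klrk1 differed by 1.14 ± 1.21 and 1.20 ± 1.16 (SE) and turned to -1.0 and -0.77 without healthy mouse 2, in which both were at 0.

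**Figure D5:**
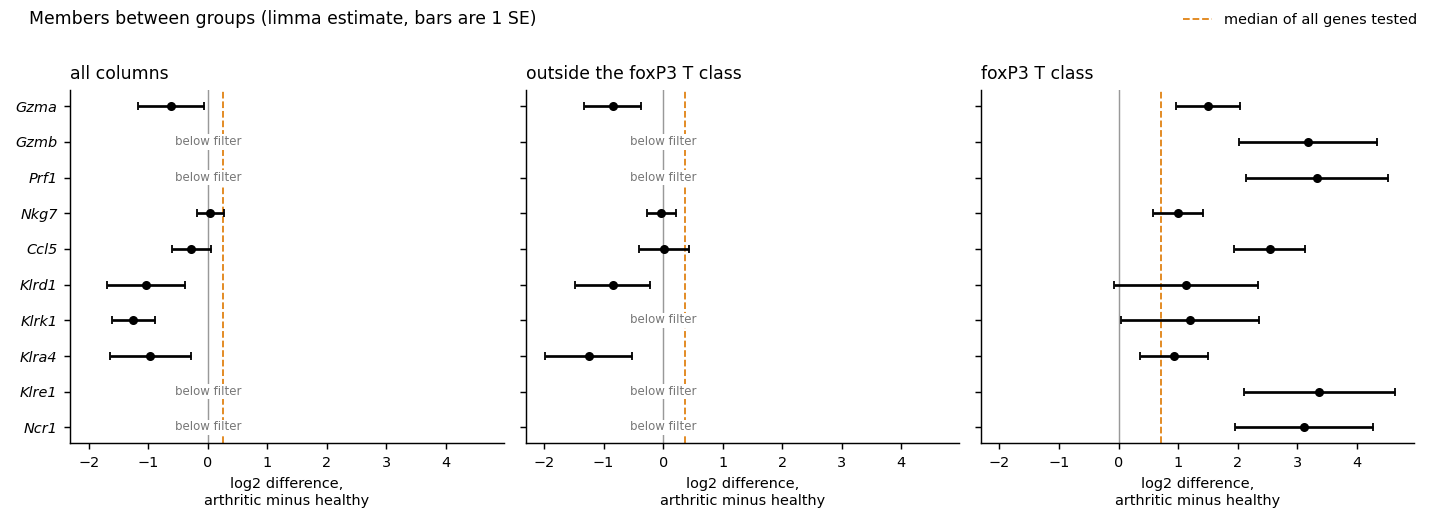
Log2 difference of each member, arthritic minus healthy, with 1 SE, over all columns, outside the foxP3 T class and inside it. The dashed line is the median of all genes tested (0.26, 0.36 and 0.71); estimates in the right panel for members at 0 in healthy mice (Gzmb, Prf1) depend on the pseudocount of 1.

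The pathway lists gave no call for a gene between the groups in these 3 comparisons. Over all columns 1 of 19 lectin-like receptors passed the filter, Klra7, with 9.12 ± 4.67 SPM in arthritic and 18.3 ± 15.0 SPM in healthy mice (limma, adjusted p = 0.498). Of 12 other NK receptors and adaptors tested, 7 had a difference below 0 and 5 above 0, with a median log2 difference of -0.15. Cd226 (DNAM-1), an activating receptor, averaged 14.7 ± 5.6 SPM in arthritic and 29.5 ± 10.8 SPM in healthy mice, and Hcst 161 ± 11.8 and 98.9 ± 74.9 SPM (adjusted p = 0.343 each). Of 12 cytotoxic effectors and chemokines 10 had a difference above 0, with a median of 0.51 beside 0.26 for all genes. The smallest p in that list was that of Rab27a, a granule transport GTPase that neutrophils also use, with 49.0 ± 14.6 SPM in arthritic and 17 ± 6.89 SPM in healthy mice (limma, adjusted p = 0.127). Ccl3, a chemokine of many leukocytes, averaged 27.3 ± 19.3 and 6.81 ± 2.12 SPM (adjusted p = 0.219). All 9 neutrophil markers had differences above 0 over all columns, with a median log2 difference of 3.00 and 1 called, and their part in the list's values was not tested. Of 12 NK regulators 9 had a difference below 0, with a median of -0.14. Id2 averaged 177 ± 18.7 SPM in arthritic and 115 ± 50.7 SPM in healthy mice (adjusted p = 0.343), and Prdm1 11.1 ± 2.43 and 20.9 ± 10.2 SPM (adjusted p = 0.378). Inside the foxP3 T class 7 lectin-like receptors passed the filter. As 15 of 19 were at 0 in healthy mouse 4 and 16 in healthy mouse 2, those that passed did so mainly through arthritic mice, and no median is given.

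In the joint table, whose columns name the group but not the mouse, each value is the authors' pooled signal and no test was made. Of its 8423 columns 1262 were identical to a blood column. Gzma (95.9 SPM), Ccl5 (137 SPM), Klrk1 (29.4 SPM) and Ncr1 (8.64 SPM) were highest in the foxP3 T class there too. Prf1 (17.5 SPM), Klrd1 (29.2 SPM), Klra4 (29.2 SPM) and Klre1 (26.3 SPM) were highest in the CD4 T class, which held 28 columns, Gzmb in the B class (6.36 SPM, 63 columns) and Nkg7 in progenitors (171 SPM). The CD4 T class levels of Prf1, Klrd1, Klra4 and Klre1 rest on 6, 10, 10 and 9 signal, and the B class level of Gzmb on 5. In the foxP3 T class Ccl5 had 210 SPM in the 89 columns named for arthritic mice, against 62.1 SPM in the 90 named for healthy mice. Without the columns that also occur in blood it had 144 and 83.4 SPM. Gzma had 123 SPM in columns of arthritic mice and 68.2 SPM in those of healthy mice, but 43.2 and 87.5 SPM without the columns that also occur in blood, so its order turned. Klre1 had 24.8 and 6.12 SPM, or 10.2 and 5.47 SPM without those columns, and Ncr1 14.5 and 2.62 SPM, or 4.55 and 2.73 SPM. With all columns kept, the values of healthy mice rest on 7 signal for Klre1 and 3 for Ncr1. T cell markers summed to 1068 SPM in columns of arthritic mice and 728 SPM in those of healthy mice. Hemoglobin took 46.5% and 44.0% of the signal in the joint columns of arthritic and healthy mice in that class.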

How the data were processed

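The authors deposited signal: every value is a whole number, and column totals are unequal. Per the labels' protocols, Seq-Well reads were extracted with the Drop-seq core protocol on GRCm38.p5, a build also given in the submitters' processing notes. For the aligner, the cell filter and the calling of classes nothing is given in the sources used here. Columns run from 6052 to 51601 signal. Since columns repeat, values were not treated as counts and no counting intervals are given. Columns were mapped to mice and groups by their names. Of the joint columns 49 were not used.

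Levels by class are unscaled SPM (per 1000000 signal). Sums per mouse were scaled with TMM factors (trims of 30% and 5%), and log2(SPM + 1) was tested with limma 3.58.1 (trend, R 4.3.3) with Benjamini-Hochberg adjustment. Genes were tested where 4 mice or more (3 in the foxP3 T class) reached 10 SPM. The foxP3 T class comparison used mice with at least 3 columns of the class. The fit was tested on simulated sums drawn independently for each mouse. As no columns were shared in them, they cannot show how shared columns affect the p-values. Shares of columns were also thinned to 6000 signal.

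The members and lists were chosen with earlier results of these data known. Named are all members, per pathway list the 3 genes with the highest foxP3 T class level and the 2 with the smallest p over all columns, and 10 genes of like pattern. Leaving out hemoglobin signal, the columns shared with the joint, or arthritic mice 1 and 3 was chosen after the data were seen, as was leaving out the columns shared between mice inside and outside the foxP3 T class. Sums and exact permutation tests were made in Python 3.11.15 (pandas 2.3.3, numpy 2.4.6). Coordinates are from GENCODE M21 and RefSeq.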

Additional observations from a re-analysis of the deposited data

Results flagged for a closer look

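Of 50 sets of 4 or 5 values looked at (each member in each group of mice), 5 had a mouse far from the others, where chance flags about 1 in 20. Over all columns healthy mouse 3 had 156 SPM of Gzma, against 25.8 to 26.9 SPM in the other 3 healthy mice, and 37.9 SPM of Klrk1, against 16.4 to 18.5 SPM. Outside the foxP3 T class healthy mouse 3 had 95.1 SPM of Gzma, against 24.3 to 27.0 SPM in the others. Its Gzma values rest on 37 signal over all columns and 11 outside the foxP3 T class. Arthritic mouse 4 had 11.3 SPM of Klre1 over all columns, against 4.96 to 6.01 SPM in the other 4 arthritic mice, and 10.3 SPM outside the foxP3 T class, against 3.73 to 5.599 SPM. Hemoglobin took 55% of the signal of healthy mouse 3 and 33.8% of that of arthritic mouse 4, and its part in these values was not tested.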

How the results depend on the processing

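The number of genes called over all columns (4) was 19 with scaling by the total alone, 0 with no filter, 7 with a pseudocount of 5, 10 without hemoglobin genes, 73 with the hemoglobin share as a covariate, and 0 without the columns identical to a joint column, or to one of another mouse or of the joint. Leaving out 1 mouse gave 0 to 64, the highest without arthritic mouse 6. Outside the foxP3 T class the 3 calls became 10 with scaling by the total alone, 0 with no filter and 0 without the columns identical to one of another mouse, and leaving out 1 mouse gave 0 to 43, again highest without arthritic mouse 6. Inside the class leaving out 1 mouse gave 0 to 612 calls, with 612 without healthy mouse 2, 345 without arthritic mouse 5, 175 without healthy mouse 3 and 1 without healthy mouse 4. None of the 6 members tested in the main fit over all columns, or of the 5 outside the class, was called there under any of these settings. Members under the filter in the main fit were not followed. The causes were not tested.

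Among the members tested in the main fits, directions turned for 5. Over all columns Gzma became 0.08 without the columns identical to one of another mouse and 0.62 without those of the joint as well, with -0.88 to 0.01 when 1 mouse was left out. Nkg7 over all columns became -0.07 with median-of-ratios factors, -0.32 thinned to the smallest total and -0.04 without the columns identical to a joint column, and lay between -0.10 and 0.12 with 1 mouse left out. Outside the class Nkg7 became 0.18 without the columns identical to one of another mouse (-0.16 to 0.09 with 1 mouse left out), and Ccl5 became -0.09 with median-of-ratios factors (-0.43 to 0.33). Inside the class Klrd1 ran from -1.0 to 2.48 and Klrk1 from -0.77 to 2.21 with 1 mouse left out. Klrk1 over all columns stayed below 0 in all 21 alternatives (-2.07 to -0.69, limma, adjusted p 0.113 to 0.718).

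Mouse numbers name different animals, and the deviations of same-numbered mice correlated at -0.00405, -0.287 and 0.301, so the numbers do not pair the mice. With the replicate block 40 genes were called over all columns and 15 outside the class, Nkg7 outside the class became 0.06, and inside the class Klrd1 became -0.79 and Klrk1 -0.62. The healthy mice gave few columns, and with 3 healthy mice in the foxP3 T class single animals decide the calls there. The median difference of all genes over all columns was 0.15 with median-of-ratios factors and 0.31 with the total alone.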
